A study of Mus musculus with 4 samples.

Results

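The genes described here encode, with 1 exception, proteins of the mitochondrial ribosome. They are the 78 genes, of 55487 in the deposited tables, whose symbol is Mrpl or Mrps followed by a number and at most 1 letter. RNA-seq read them in satellite cells, the muscle stem cells, of mouse, taken straight after isolation, with 2 Control samples and 2 samples of the Rbfox2 cKO. In the cKO, floxed Rbfox2 was deleted by Pax7CreERT2, a tamoxifen-activated Cre driven in Pax7-expressing cells, and a Rosa26 EYFP allele marked those cells. Whether Control animals carried the Cre or received tamoxifen, their age, and whether a library came from 1 animal or several are not stated in the labels. P-values therefore measure the spread between these libraries, which may be technical.

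The mitochondrial ribosome translates the few proteins encoded by mitochondrial DNA, all of them subunits of the respiratory chain and ATP synthase. Its ribosomal RNAs come from mitochondrial DNA, whereas every protein of it is encoded in the nucleus, made in the cytosol and imported. Part of these proteins descend from bacterial ribosomal proteins and the rest are specific to mitochondria. By known structure 26 of the 78 members belong to the small subunit, which decodes the mRNA, and 51 to the large subunit, which forms the peptide bond. Mrps30 and Mrps18a sit in the large subunit despite their symbols. Mrps36 is now known as a subunit of the alpha-ketoglutarate dehydrogenase complex and belongs to neither. The members lay on 17 autosomes, with 11 on chromosome 11 and 8 on chromosome 17.

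Rbfox2, the deleted splicing regulator, gave 131.3 CPM in Control 1, 55.98 in Control 2, 40.04 in cKO 1 and 15.17 in cKO 2, where CPM is the count scaled to the library total with TMM factors. Both cKO libraries were below both Control libraries, and Rbfox2 fell by edgeR's quasi-likelihood test on counts (log2 fold change -1.76, SE 0.35, adjusted p = 0.000252). In limma it did not pass (adjusted p = 0.237). The libraries held from 68884091 to 101997422 estimated counts. The library cKO 1 stood apart: its TMM factor was 1.27, against 0.876 to 0.965 in the others, and its median over all genes was 0.771 TPM, the level scaled for transcript length and library size, against 0.312 to 0.437. Olfactory and vomeronasal receptor genes, most of which are not expected in muscle, had a median of 0.636 TPM in cKO 1 and 0.230 to 0.394 TPM elsewhere. Values are therefore given by library where a result turns on them. Apart from the scaling of CPM by the TMM factor, the part of these differences in the results was not tested. Of 12 satellite cell markers none was at 0, and their summed level was 17278 to 17974 TPM in Control and 17577 to 18169 TPM in cKO. Most of that sum was Sdc4 alone, at 10958 to 12058 TPM. Pax7, the gene that drives the Cre and defines these cells, had 7.90 and 6.995 TPM in the Control libraries against 15.9 and 13.5 TPM in the cKO libraries, without overlap, and did not pass (edgeR log2 fold change 0.84, adjusted p = 0.556; limma adjusted p = 0.0994). Markers of other cells were also present: the summed level of 7 erythroid markers, of which 5 rose, was 337 to 764 TPM in Control and 1471 to 1800 TPM in cKO. The 11 leukocyte markers summed to 44.9 to 51.7 TPM in Control and 61.8 to 80.7 TPM in cKO, and the 10 endothelial markers to 152.5 to 168.0 and 177.2 to 217.4 TPM, with none of either list at 0 or past the threshold. Summed levels of 8 fibro-adipogenic, 5 tenocyte, 6 pericyte and 5 Schwann cell markers, of which 0 passed, were 1463 to 1658, 35.6 to 38.4, 138 to 144 and 27.9 to 28.04 TPM in Control. In cKO they were 1658 to 1861, 40.9 to 66.0, 133 to 159 and 35.1 to 39.0 TPM. The 9 markers of mature muscle fibres summed to 79.3 to 84.0 TPM in Control, and to 84.0 and 51.8 TPM in cKO 1 and 2. In bulk samples fewer cells of a type and less RNA per cell cannot be told apart.

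Every member was detected in every library, and all 78 passed the filters on low counts and low TPM. The lowest count of a member in a library was 71 to 82 in Control and 44 to 116 in cKO, beside a median member count of 1201 to 1736. On the TPM scale, which is corrected for length and so allows genes to be set beside each other, the mean over the 4 libraries had a median of 21.9 TPM and quartiles of 14.9 and 43.7 TPM. Of the members, 69 had a mean TPM from 10 to 100, 4 had 100 or more and 5 had less than 10. Proteins of 1 complex were thus represented by transcripts at levels that mostly lay within 1 order of magnitude.

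**Figure D1:**
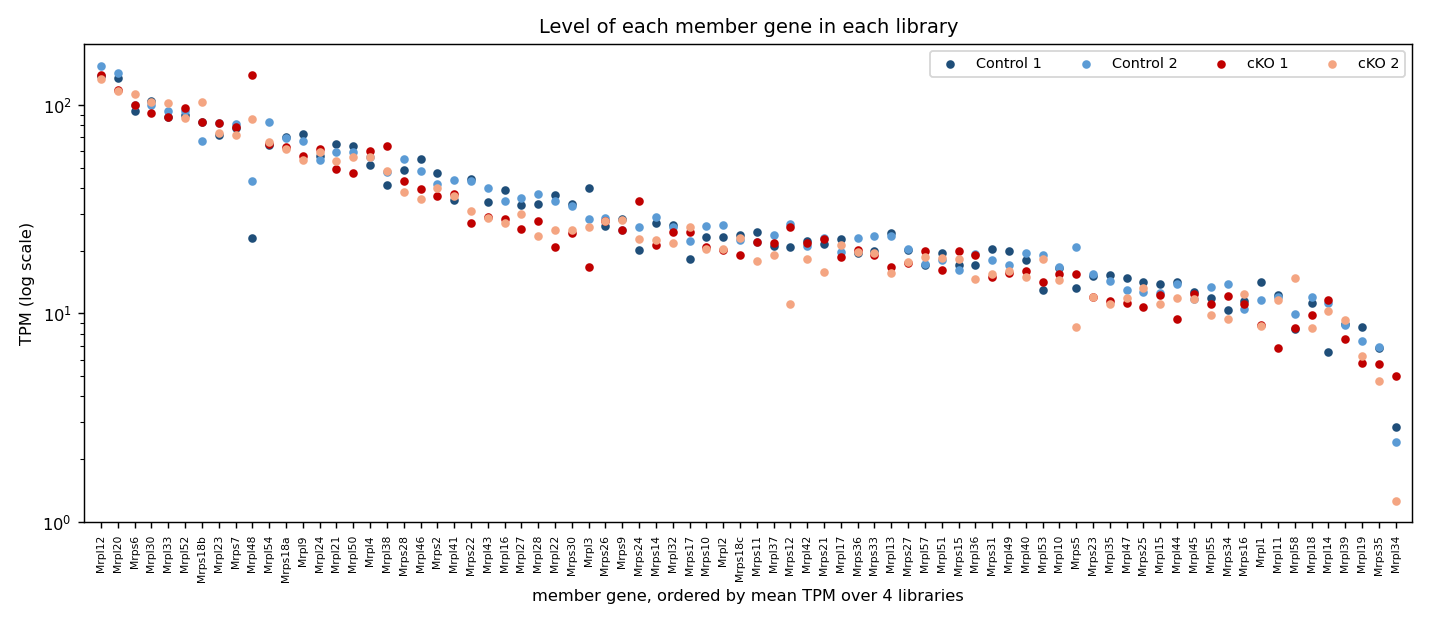
TPM on a log axis of each of the 78 members in each of the 4 libraries (1 point per library), ordered by the mean over libraries. Mrpl12, at a mean of 141.7 TPM, is the highest and Mrpl34, at 2.88 TPM, the lowest, and the points of Mrpl48 lie farther apart than those of its neighbours.

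The most abundant member was Mrpl12, the mitochondrial counterpart of the bacterial stalk protein that recruits translation factors. Its level was 138.5 and 154.5 TPM in Control and 139.9 and 133.9 TPM in cKO, so the groups overlapped. Mrpl20, a large subunit protein with a bacterial homolog, stood at 135.5 and 142.1 TPM in Control and at 117.5 and 117.1 TPM in cKO. Here both cKO libraries lay below both Control libraries (log2 difference of TPM + 1 of -0.24, adjusted p = 0.356 in limma). Mrps6 (mean 102.1 TPM), Mrpl30 (100.1 TPM) and Mrpl33 (92.8 TPM) followed. At the low end stood Mrpl19 (7.01 TPM), Mrps35 (6.04 TPM) and Mrpl34 (2.88 TPM). Mrpl34 varied most between the cKO libraries for its level, with 2.85 and 2.41 TPM in Control and 4.98 and 1.26 TPM in cKO 1 and 2.

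Summed over the 78 members, the level was 2691 and 2789 TPM in Control 1 and 2 and 2615 and 2552 TPM in cKO 1 and 2. This is 2740 ± 69.1 TPM in Control and 2584 ± 45.1 TPM in cKO (SD, n = 2 each), with both cKO libraries below both Control libraries. It made up between 0.255% and 0.279% of all TPM. Without Mrpl48, the member described below that went the other way, the sums were 2668 and 2745 TPM in Control and 2476 and 2466 TPM in cKO. The 46 members with a bacterial homolog summed to 1725 and 1774 TPM in Control and 1596 and 1575 TPM in cKO. The 31 members specific to mitochondria summed to 946 and 992 TPM in Control and 999 and 957 TPM in cKO, and so overlapped. Leaving Mrpl48 out of them gave 923 and 949 TPM against 860 and 871 TPM. No test was made of these sums.

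The comparison of cKO with Control asks which transcripts differ in satellite cells of the Rbfox2 cKO, where Rbfox2 RNA was lower but not absent. In edgeR on the counts, adjusted over all 38143 genes tested, 1 of the 78 members rose, 0 fell and 77 did not pass. Of all genes tested, 0.551% passed, 0.364% upward and 0.186% downward, so 1 riser among 78 members is a small number to read. At an unadjusted p under 0.05 the members numbered 4 lower and 1 higher, where 1.51% of all genes were lower and 4.83% passed in either direction. In limma on log2(TPM + 1), 0 of the 78 passed, against 0.308% of the 17210 genes tested, and the lowest adjusted p was 0.151. At an unadjusted p under 0.05 limma gave 13 members lower and 1 higher, beside 4.59% of all genes lower and 14.9% in either direction. In libraries simulated with the spread that edgeR fitted by expression level, edgeR found 10% of 2-fold changes and 85% of 4-fold changes. The changed genes were not drawn from the members alone, and the background of cKO 1 was not simulated. In that setting, differences of the size seen in most members were mostly not detectable.

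Although only 1 member passed, most lay on the lower side. The log2 fold change from counts was negative for 67 of the 78, while 45.0% of all genes tested were negative. The members' median was -0.32, with quartiles of -0.46 and -0.16, and the median over all genes tested was 0.06. On the TPM scale 60 of 78 were negative, against 35.1% of all genes, and the medians were -0.16 for the members and 0.13 for all genes. In CPM, 43 members had both cKO libraries below both Control libraries and 2 had both above. Over all genes tested these shares were 13.3% and 18.0%. In TPM the counts were 39 below and 6 above, beside 15.7% and 32.0% of all genes. On both scales together 34 members were lower and 2 higher without overlap. The share of all genes on both scales together was not computed, so this count has no comparison. These counts and medians describe the list, and no set test was made. Markers of mature muscle fibres also lay on the lower side in counts: 7 of 9 were negative, 6 of 9 were lower without overlap in CPM, 0 passed and their median was -0.45. Their median log2 ratio in cKO 1 and cKO 2 was -0.34 and -0.49 in CPM and -0.0042 and -0.59 in TPM. Their part in the members' values was not tested.

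**Figure D2:**
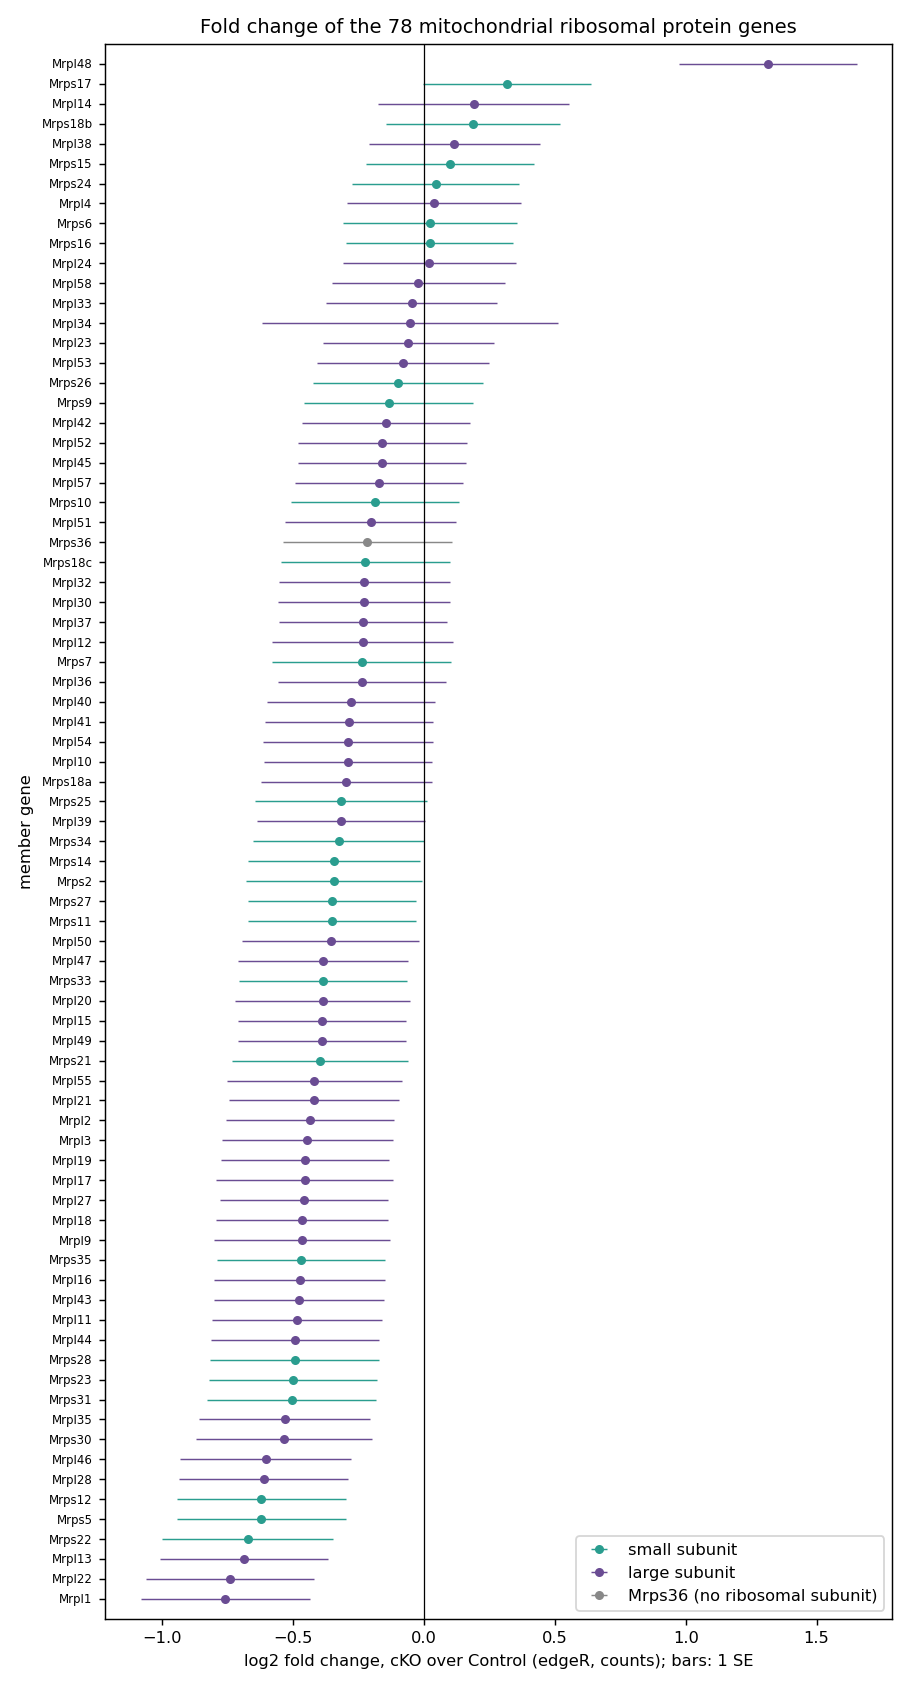
Log2 fold change of each member, cKO over Control, from edgeR on counts, with bars of 1 SE, coloured by ribosomal subunit. Most points lie left of 0, between -0.76 for Mrpl1 and 0.32 for Mrps17, and Mrpl48 stands apart at 1.31.

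How far below 0 the members lay depended on the library and on the scale. In CPM the median log2 ratio to the Control mean was -0.61 in cKO 1 and -0.08 in cKO 2, against 0.00 in both Control libraries. In TPM it was -0.18 in cKO 1 and -0.21 in cKO 2. Over all genes tested in edgeR the same medians were 0.17 and -0.05 in CPM and 0.27 and 0.0050 in TPM. Many of these genes were lower in level than the members. Over 12045 protein-coding genes within the members' range of mean CPM, the CPM medians were -0.096 in cKO 1 and 0.10 in cKO 2. In TPM, with 10288 of them tested, they were 0.28 and 0.024. In CPM, 72 members in cKO 1 lay below both Control libraries and 44 did in cKO 2, where 29.9% and 38.4% of all genes did. In TPM the numbers were 47 and 51, beside 22.1% and 36.6% of all genes. The cKO libraries thus differed from each other in CPM and lay close together in TPM. With cKO 1 left out, the members' median from counts was -0.072 and that of all genes -0.06, and with cKO 2 left out they were -0.68 and 0.15. On the TPM scale the members' median was -0.20 without cKO 1 and -0.16 without cKO 2, while that of all genes was 0.02 and 0.25. CPM is divided by the TMM factor, so the factor of 1.27 lowered every CPM of cKO 1. The factor of 0.876 raised every CPM of cKO 2. On the log2 scale the ratio of these factors is about as large as the gap between the cKO medians in CPM. Most of that gap therefore follows from the scaling. The part of the low-level background of cKO 1, given above, was not tested. Relative to the median of all genes, the members stood at -0.39 with TMM factors and at -0.46 with library totals alone, a scaling that moved all genes to 0.25.

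**Figure D3:**
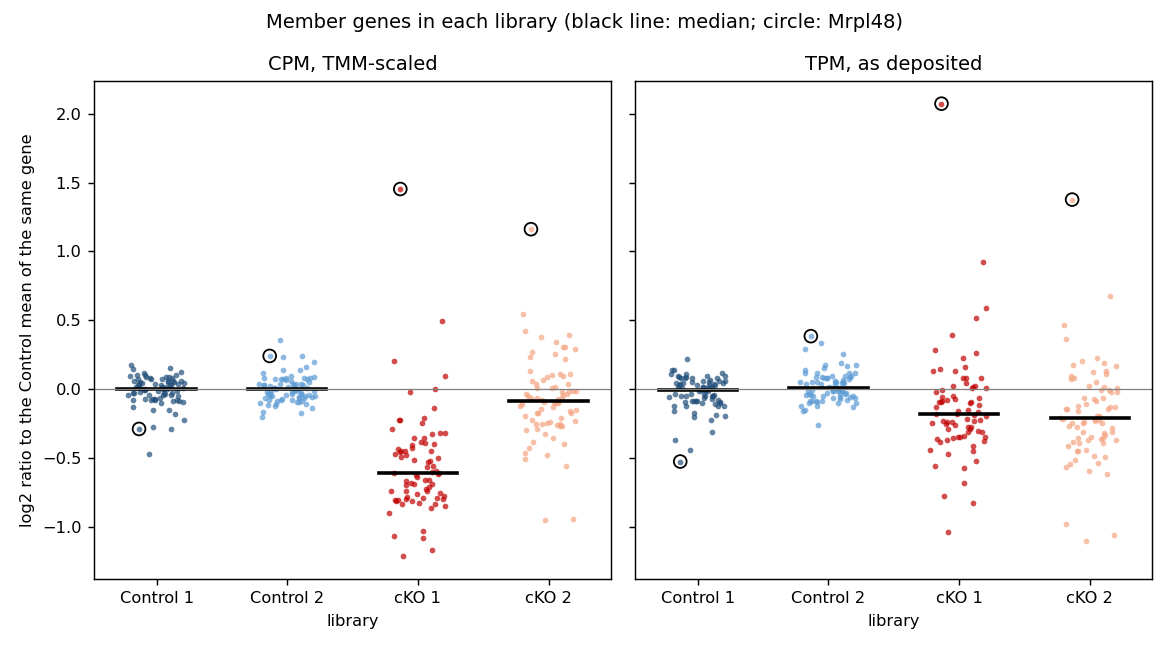
Log2 ratio of each member to its own Control mean in each library, in TMM-scaled CPM (left) and in deposited TPM (right); each point is 1 gene, black lines are medians and circles mark Mrpl48. The medians of cKO 1 and cKO 2 are -0.61 and -0.08 in CPM but -0.18 and -0.21 in TPM.

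The 2 subunits showed similar values. The median log2 fold change from counts was -0.34 over the 26 small subunit members and -0.32 over the 51 large subunit members. It was -0.37 over members with a bacterial homolog and -0.30 over those specific to mitochondria. In CPM 14 of the 26 small subunit members and 29 of the 51 large subunit members had both cKO libraries below both Control libraries, and in TPM 11 and 28 did. Over all genes tested 13.3% did in CPM and 15.7% in TPM. The difference between these classes was not tested. Across the 78 members the fold change had little relation to exon length (Pearson r = 0.09, Spearman rho = 0.01) or to mean TPM (r = 0.22, rho = 0.18). These are descriptions across genes of the same 4 libraries, which share depth and scaling.

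Mrpl48 was the member that rose. It encodes a mitochondrion-specific protein of the central protuberance, the crown of the large subunit that faces the small subunit. Its Control libraries held 22.9 and 33.1 CPM and its cKO libraries 76.7 and 62.7 CPM. The means were 28.0 ± 7.20 and 69.7 ± 9.93 CPM (SD, n = 2 each). Both cKO libraries were above both Control libraries by a wide gap. By edgeR the log2 fold change was 1.31 (SE 0.34, adjusted p = 0.0250). In TPM its level was 23.0 and 43.3 in the Control libraries against 139.4 and 86.0 in the cKO libraries, a log2 difference of TPM + 1 of 1.76 (SE 0.38, adjusted p = 0.178 in limma). In Control 1 this is close to the members' median, and in cKO 1 close to the level of Mrpl12.

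The call on Mrpl48 rested on the settings. The log2 fold change stayed positive in every alternative run, in edgeR and DESeq2 from 1.06 without Control 1 to 1.58 without Control 2, and in limma on TPM from 1.32 without Control 1 to 2.20 without Control 2. The edgeR adjusted p was 0.00269 without cKO 1 and 0.0113 without cKO 2, and 1.00 without either Control library. With all 4 libraries the call was lost with DESeq2 size factors (adjusted p = 0.528), library totals only (0.285), no filter (0.746), a minimum of 5 CPM in 2 libraries (0.149), DESeq2 (0.160) and the replicate number as a block (0.321).

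Mrpl48 (ENSMUSG00000030706.17) lies on GRCm38 chromosome 7, 100545751 to 100608301, on the minus strand, and GENCODE M21 lists 10 transcripts of it. Its 5′ end overlaps Rab6a, a small GTPase of Golgi traffic on the opposite strand, over 708 bases of exon. The deposited values are not stated to use strand, so reads from this stretch could count for either gene. Rab6a had 239.4 and 224.0 CPM in the Control libraries against 194.8 and 282.3 CPM in the cKO libraries (log2 fold change 0.04, adjusted p = 1.00 in edgeR). In TPM its groups did not overlap, with 128.0 and 121.8 against 140.8 and 141.2. Both genes together held 262.4 and 257.1 CPM in the Control libraries against 271.5 and 344.9 in the cKO libraries, a log2 ratio of 0.25. Of the 50-base words in Mrpl48 transcripts 7.96% also occur in Rab6a and 3.17% in the processed pseudogene Mrpl48-ps on chromosome 4. Mrpl48-ps, at 0.958 and 1.14 CPM in the Control libraries against 2.64 and 2.17 in the cKO libraries, also showed no overlap (log2 fold change 1.197, adjusted p = 0.504). How reads were divided between these copies was not tested. The count per TPM, which follows the mean length of the transcripts assigned to a gene, differed for Mrpl48 by a log2 value of -0.29 from Control to cKO, the lowest of the 78 members, whose highest was 0.39 for Mrpl3. Over well counted genes (mean count 200 or more) the middle 95% lay between -0.28 and 0.26. By library, relative to the library median, Mrpl48 stood at -0.645 and -1.01 in Control and at -1.04 and -1.19 in cKO. Its Control libraries thus differed from each other by more than the groups did. Mrpl3 stood at -0.795 and -0.473 in Control and at 0.055 and -0.536 in cKO, where cKO 1 alone was high.

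**Figure D4:**
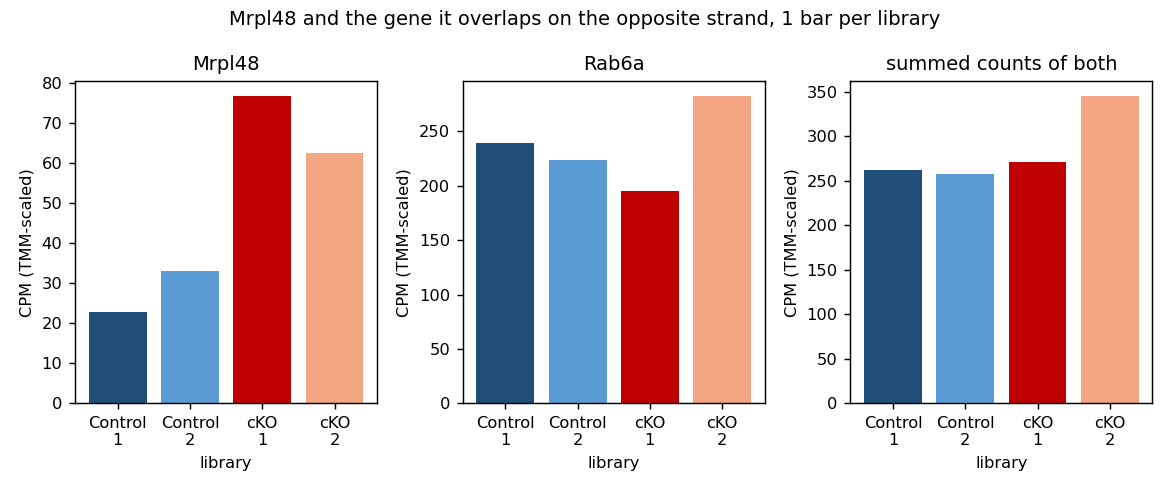
TMM-scaled CPM of Mrpl48, of Rab6a and of the counts of both added together, 1 bar per library. Mrpl48 is at 22.9 and 33.1 in Control and at 76.7 and 62.7 in cKO, while Rab6a ranges from 194.8 to 282.3 with overlapping groups.

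Promoters of mitochondrial ribosomal protein genes are known for sites of NRF1, of ETS factors such as GABP and of YY1, factors that act on many nuclear genes for mitochondria. RefSeq promoter windows (GRCm38.p6) from 250 bases before to 50 after the start were matched by symbol for 69 of the 78 members, in 75 windows, 4 of them of Mrpl48. The letters CCGGAAG (ETS type), searched on both strands, were in 34.7% of member windows and 11.9% of the windows of protein-coding genes. AAGATGGC (YY1 type) was in 16.0% and 3.11%, and GCATGCGC (NRF1 type) in 10.7% and 3.65%. CACGTG (an E-box) was in 9.33% and 8.03%, CCAAT in 40.0% and 37.8%, and TATAAA in 6.67% and 12.1%. Counted by gene, CACGTG was in 7.25% of members and 9.18% of protein-coding genes, and CCAAT in 39.1% and 42.1%. For these words the direction thus reversed, while for the others it stayed. The windows of Mrpl2 overlap each other, so its E-box and CCAAT sites were counted more than once. No search word contains another, though matches of different words may overlap. Of 31 ETS-type matches 26 began within 60 bases before or 50 after the start site, and of 12 YY1-type matches 8 began after it. Of the 20 members with the lowest fold change from counts, 17 had a window, and CCGGAAG was in 35.3% of them. A match is a description of letters and not a bound site.

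**Figure D5:**
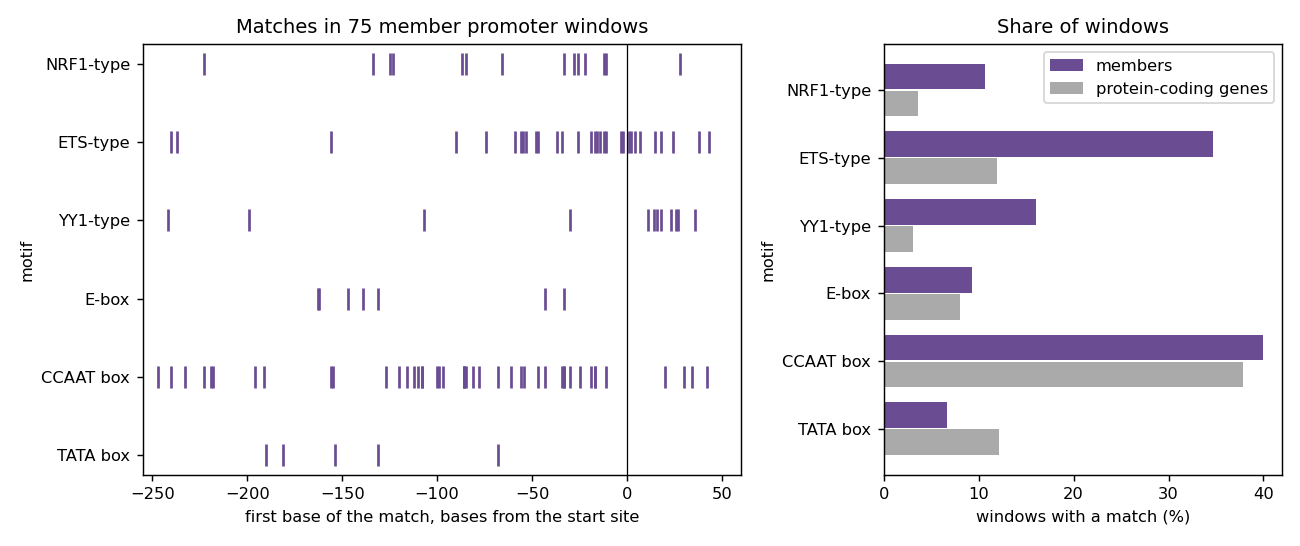
Left, position of each motif match relative to the start site in the 75 member windows (1 tick per match); right, percentage of windows with a match for members and for protein-coding genes. ETS-type letters are in 34.7% of member windows and 11.9% of others, and YY1-type matches gather just after the start site.

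The 100 bases before the start site are shown for 2 of the 4 Mrpl48 windows, since it is the member that rose, and for Mrpl22 and Mrps22, whose adjusted p was the lowest of the lower members in limma. They are written 5′ to 3′ on the gene's strand from RefSeq, in lower case, with matches to the 6 words above in capitals. The first Mrpl48 stretch, at the outermost start (chr7:100608302-100608401, minus strand), and the Mrpl48 stretch at an inner start (chr7:100583131-100583230, minus strand) are followed by Mrpl22 (chr11:58171564-58171663, plus strand) and Mrps22 (chr9:98601680-98601779, minus strand).
Mrpl48, outermost start: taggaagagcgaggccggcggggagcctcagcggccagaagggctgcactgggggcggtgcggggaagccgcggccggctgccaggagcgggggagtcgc
Mrpl48, inner start: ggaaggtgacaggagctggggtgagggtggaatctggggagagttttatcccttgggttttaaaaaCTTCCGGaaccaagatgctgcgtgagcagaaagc
Mrpl22: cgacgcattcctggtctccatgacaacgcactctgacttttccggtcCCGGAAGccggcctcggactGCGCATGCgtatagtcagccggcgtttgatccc
Mrps22: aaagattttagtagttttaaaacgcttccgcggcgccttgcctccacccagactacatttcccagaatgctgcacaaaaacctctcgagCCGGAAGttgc
The inner Mrpl48 start shown carries an ETS-type match, read on the other strand. The outermost start and the 2 inner starts not shown carry none of the 6 words in the 100 bases before them. Mrpl22 carries an ETS-type and an NRF1-type match, and Mrps22 an ETS-type match next to its start.

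Next to Mrpl48 the positive side held few members. Mrps17, a small subunit protein with a bacterial homolog, had 13.1 and 15.6 CPM in the Control libraries against 16.6 and 19.3 in the cKO libraries. It was the only other member with both cKO libraries above both Control libraries in CPM and in TPM, and it did not pass (log2 fold change 0.32, SE 0.32, adjusted p = 1.00). Mrpl14, which lies at the interface of the subunits, had 2.27 and 4.01 CPM in the Control libraries against 3.09 and 4.08 in the cKO libraries, with overlap. Mrpl38, another protein of the central protuberance, stood at 41.5 and 47.8 TPM in Control and 63.8 and 48.2 TPM in cKO, with cKO 2 just above the higher Control library. Mrps15, Mrps24 and Mrpl4 had log2 fold changes of 0.10, 0.04 and 0.04, and with DESeq2 size factors Mrps24 and Mrpl4 were at -0.028 and -0.017.

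At the other end stood Mrpl1, Mrpl22, Mrpl13 and Mrps22, the 4 members lower at an unadjusted p under 0.05 in edgeR. Mrpl1, a protein of the stalk at which tRNAs leave the ribosome, had 19.7 and 15.8 CPM in the Control libraries against 8.47 and 12.5 in the cKO libraries (log2 fold change -0.76, SE 0.32, adjusted p = 0.717). In TPM it stood at 14.2 and 11.6 against 8.75 and 8.72, where the cKO libraries lay close together. Mrpl22, which lines the exit tunnel for the nascent peptide, stood at 37.0 and 34.6 TPM in Control and at 20.9 and 25.1 TPM in cKO. Its log2 fold change from counts was -0.74 (SE 0.32, adjusted p = 0.763). Mrpl13 stood at 24.4 and 23.5 TPM in Control and at 16.7 and 15.6 TPM in cKO, and Mrps22, a mitochondrion-specific protein of the small subunit, at 44.1 and 43.2 TPM against 27.2 and 31.2 TPM. For these 3 the gap between the groups in TPM was wider than the spread within either group. In CPM this held for Mrpl13 but not for the other genes. Mrpl22 had 15.3 and 14.4 CPM in Control against 6.41 and 11.4 in cKO, and Mrps22 had 32.3 and 30.8 against 14.9 and 24.7. Mrpl22 and Mrps22 shared the lowest adjusted p of any member in limma, 0.151, which does not pass.

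Mrps5, Mrps12, Mrpl28 and Mrpl46 came next, with log2 fold changes from -0.62 to -0.60 in edgeR, each with an adjusted p = 1.00. In Mrps12, a protein of the decoding centre, Control 1 and 2 had 20.8 and 27.0 TPM while cKO 1 and 2 had 26.1 and 11.1 TPM, so that the groups overlapped and cKO 1 was not the lower library. Mrps5 likewise stood at 13.2 and 20.8 TPM in Control and at 15.5 and 8.62 TPM in cKO. Mrpl46 had 55.0 and 48.0 TPM in Control against 39.5 and 35.4 TPM in cKO, without overlap. Its start lies head to head with that of another member, Mrps11, over 173 bases of shared exon on opposite strands. Together the pair had 51.2 and 45.0 CPM in the Control libraries against 29.4 and 37.3 in the cKO libraries. Mrps30, which is also a large subunit protein, stood at 33.5 and 32.8 TPM against 24.3 and 25.2 TPM (log2 difference of TPM + 1 of -0.41, adjusted p = 0.243 in limma). Mrpl3, named here after its values were seen, had 39.8 and 28.5 TPM in Control against 16.7 and 26.0 TPM in cKO, with cKO 1 the lower (log2 difference -0.67, adjusted p = 0.273 in limma).

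The 3 paralogs of bacterial S18 differed in level, and of them Mrps18a and Mrps18b were counted above as specific to mitochondria. Mrps18b stood at 83.1 and 67.5 TPM in Control and 82.7 and 104.0 TPM in cKO, with overlap. Mrps18a, the paralog of the large subunit, stood at 70.6 and 69.6 TPM in Control and at 63.2 and 61.3 TPM in cKO, without overlap. Mrps18c, the small subunit counterpart of bacterial S18, stood lower, at 23.7 and 22.6 TPM against 19.1 and 23.1 TPM. None of the 3 passed in either test. In Control the order of Mrps18a and Mrps18b changed between libraries, and Mrps18c lay below both in each of the 4 libraries. Mrpl58, a peptidyl-tRNA hydrolase that frees stalled ribosomes, stood at 8.46 and 9.99 TPM in Control and 8.52 and 14.8 TPM in cKO. Mrps36 stood at 19.6 and 23.1 TPM against 20.2 and 19.6 TPM.

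Several other members share exons or sequence with other genes, so their values are less certain. A gene on the opposite strand overlaps exons of 28 members, and 11 share 20% or more of their 50-base words with other annotated genes: Mrpl19, Mrpl22, Mrpl24, Mrpl27, Mrpl43, Mrpl47, Mrpl53, Mrps18b, Mrps18c, Mrps25 and Mrps34. Mrpl27, Mrpl43 and Mrpl47 had log2 fold changes of -0.46, -0.48 and -0.38 and lay lower in cKO without overlap on both scales, for instance Mrpl43 at 34.1 and 40.2 TPM against 29.1 and 28.8 TPM. For Mrpl24 and Mrpl53 they were 0.02 and -0.08, with overlap in CPM. None of these passed. For Mrps25, whose exons overlap those of Nr2c2, the log2 ratio of mean CPM was -0.32 alone and 0.01 for the sum with Nr2c2 and Gm42933. For Mrps34, with Mapk8ip3 and Nme3, it was -0.33 alone and 0.21 for the sum. For Mrpl22, with the pseudogene Gm6997, it was -0.74 alone and -0.72 for the sum. A sum with a more abundant gene follows that gene, so it does not show how reads were divided.

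Rbfox proteins bind the letters TGCATG in RNA. TGCATG occurred in the longest annotated transcript of 34 of the 78 members (43.6%) and of 56.0% of protein-coding genes tested. The members' longest transcripts were shorter, with a median of 1866.5 against 3019 bases, and held 0.347 sites per kb against 0.302. Mrpl48 had 1 site in its longest transcript and Mrpl22 had 0. Introns were not searched.

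The other lists read for the mitochondrial translation system had no gene past the threshold in either test. Mitochondrial tRNAs and the enzymes that charge them were not among these lists. Of 5 mitochondrial ribosome subunits without an Mrp symbol, 0 rose and 0 fell (median log2 fold change from counts -0.18). Ptcd3 stood at 86.2 and 72.6 TPM in Control and 69.4 and 82.6 TPM in cKO, and Aurkaip1 at 41.9 and 41.02 TPM against 41.6 and 72.3 TPM, where cKO 2 alone was high. Of 27 genes for assembly of the mitochondrial ribosome and modification of its RNA, 0 passed (median -0.17), among them the helicase Dhx30 at 44.97 and 44.2 TPM in Control and 37.4 and 39.4 TPM in cKO. Of 15 translation factors 0 passed (median -0.11), and the elongation factor Tufm stood at 35.5 and 33.8 TPM against 40.9 and 33.7 TPM. Of 11 genes of mitochondrial transcription and genome maintenance 0 passed (median 0.10). In TPM 5 of them lay higher in cKO without overlap and 2 lower, beside 32.0% and 15.7% of all genes. The higher ones were Polrmt, Tefm, Polg, Polg2 and Mterf2, among them the mitochondrial DNA polymerase Polg at 30.5 and 43.01 TPM against 52.6 and 43.4 TPM. The lower ones were Tfb2m, a transcription initiation factor, at 96.2 and 81.7 TPM against 59.2 and 61.5 TPM, and Tfam, which packages mitochondrial DNA, at 49.1 and 47.4 TPM against 36.5 and 39.03 TPM. Of 12 regulators of mitochondrial biogenesis 0 passed (median -0.07). The ribosomal RNAs of the complex stood at 10773 and 9881 TPM in Control and 6632 and 9578 TPM in cKO for mt-Rnr2, and at 783 and 792 TPM against 604 and 797 TPM for mt-Rnr1, in both cases with cKO 1 as the lowest library. Of 13 mitochondrial mRNAs, the templates of this ribosome, 0 passed in edgeR. Their median log2 ratio in CPM was -0.84 in cKO 1 and 0.08 in cKO 2, and in TPM it was -0.41 and -0.036. At an unadjusted p under 0.05 edgeR gave 2 of the 27 assembly genes, 1 of the 11 transcription genes and 0 in the other lists of this system. Over all genes the share was 4.83%. Limma gave 3 of 26 assembly genes tested, 4 of 10 transcription genes, 3 of 10 regulators and 1 of 13 mRNAs, and 0 in the others. Its share over all genes was 14.9%.

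Beside the members, 83 cytosolic ribosomal proteins had a median log2 fold change of -0.30 from counts and -0.16 from TPM, and 84 nuclear oxidative phosphorylation genes -0.28 and -0.14. The members' values were -0.32 and -0.16. Groups did not overlap and were lower in CPM for 44 of the 83, 36 of the 84 and 43 of the 78. In TPM this was so for 51 of 80, 45 of 82 and 39 of 78 tested. Over all genes tested the shares were 13.3% in CPM and 15.7% in TPM. None of the 3 lists had a member that fell in edgeR, and in limma Rps24, of the small cytosolic subunit, fell (log2 difference of TPM + 1 of -0.88, adjusted p = 0.0318). At an unadjusted p under 0.05 edgeR gave 2 of the 83 cytosolic ribosomal proteins and 0 of the 84 oxidative phosphorylation genes. Limma gave 11 of 80 and 21 of 82 tested. Over all genes the shares were 4.83% in edgeR and 14.9% in limma. Differences between the lists were not tested.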

How the data were processed

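RNA of freshly isolated satellite cells was sequenced in 2 Control and 2 cKO libraries, made from 10 ng RNA each by SMART-Seq, per the labels' protocols. One deposited table gives each gene's estimated counts in whole numbers, and another gives TPM as the authors computed them. Per the submitters' processing notes, HISAT2 2.1.0, StringTie 1.3.6 and GRCm38 were used. The labels state no annotation release, strand setting or filter. Members were matched by gene identifier across both tables.

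Counts were tested in edgeR 4.0.16 (R 4.3.3) by its robust quasi-likelihood test after TMM scaling and filterByExpr. As SE, the log2 fold change over the root of F is given. Log2(TPM + 1) was tested in limma 3.58.1 (trend, robust) where the mean reached 1 TPM. It understates changes of low genes. P-values were adjusted by Benjamini-Hochberg over all genes tested, with a threshold of 0.05. Libraries of a group were checked for being separate (chi-square over degrees of freedom 49.6 for Control and 83.5 for cKO). Coordinates, overlaps and 50-base words come from GENCODE M21. Genes named were drawn from a rule: members past a threshold, the 8 with the largest fold change each way, the 5 highest and 3 lowest in TPM, 7 of special role and those sharing sequence, and from the other lists up to 3 genes with the highest TPM; others were chosen after their values were seen. The members and lists were chosen with earlier results of these data known. Alternatives were DESeq2 1.42.0, other factors, filters and pseudocounts, a replicate block and each library left out. The scripts were tested on simulated data.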

Additional observations from a re-analysis of the deposited data

How the results depend on the processing

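Over all genes 210 passed the threshold in edgeR, against 119 with DESeq2 size factors, 28 with no filter, 14 with a minimum of 5 CPM in 2 libraries, 93 in DESeq2 and 96 with the replicate block. Without Control 1 the number was 51, without Control 2 it was 56, and leaving out cKO 1 or cKO 2 gave 896 or 2267. Of the members, 1 passed, and 0 did with DESeq2 size factors, library totals only, no filter, the 5 CPM minimum, DESeq2 or the replicate block (Mrpl48 adjusted p = 0.321 in that block). Leaving out a library leaves 1 library in its group. Without cKO 2 that library is cKO 1, whose TMM factor of 1.27 lowered every CPM. A lone library is assumed in these fits to vary like the other group. The members' median ranged from -0.68 without cKO 2 to -0.072 without cKO 1. In limma on TPM 0 members passed with all 4 libraries. The median of -0.16 ranged from -0.20 to -0.16 with a library left out.

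Labels do not say what the replicate number marks. Same-numbered libraries deviated from their group means with r = -0.20 over 10579 genes whose mean CPM reached 4. With crossed numbers as the block, chosen after seeing the data, 243 genes and 1 member passed.

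Some members near 0 changed sign in edgeR. With DESeq2 size factors Mrpl4 stood at -0.017, Mrpl24 at -0.035, Mrps24 at -0.028 and Mrps6 at -0.025, and in DESeq2 they stood at -0.0026, -0.021, -0.019 and -0.0080. With library totals only, Mrpl58 stood at 0.059, Mrpl53 at 0.0065, Mrpl34 at 0.23 and Mrpl33 at 0.058, and with the 5 CPM minimum Mrpl58 at 0.032 and Mrpl33 at 0.028. Mrps6 was at -0.024 with the replicate block and -0.023 with the crossed block. With each library left out, log2 fold changes ranged from -0.28 to 0.26 for Mrpl4, -0.17 to 0.25 for Mrps24, -0.18 to 0.64 for Mrpl14, -0.93 to 0.42 for Mrpl34, -0.46 to 0.35 for Mrps6, -0.29 to 0.24 for Mrpl24, -0.36 to 0.56 for Mrps18b, -0.67 to 0.31 for Mrpl53, -0.86 to 0.052 for Mrps25, -0.73 to 0.12 for Mrps18c, -0.68 to 0.41 for Mrpl58, -0.71 to 0.10 for Mrpl30, -0.57 to 0.0016 for Mrpl12, -0.55 to 0.018 for Mrps36, -0.52 to 0.28 for Mrpl33, -0.069 to 0.23 for Mrpl38 and -0.21 to 0.32 for Mrps15. The cause of these shifts was not tested.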
